A study of Mus musculus with 4 samples.

Results

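The 8 genes described here are markers by which neural stem and progenitor cells are recognised: Nes and Vim, which encode intermediate filament proteins, Prom1 and Cd9, which encode membrane proteins, Fut4, which encodes a sugar-transferring enzyme, Msi1 and Msi2, which encode RNA-binding proteins, and Nr2e1, which encodes a nuclear receptor. They were chosen by name, as all non-control probes to which the array design gives 1 of these symbols, 8 of the 27962 names on the array, which made 17 of 41174 probes and 26 of 43379 non-control spots. Msi2 had 5 probes, Cd9 3, Prom1, Msi1 and Vim a pair each, and Fut4, Nr2e1 and Nes 1 each, that of Nes being spotted 10 times.

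Total RNA was measured on 4 single-colour Agilent arrays of the mouse genome, labelled with Cy3 from 0.25 ug of RNA each. Measured were 3 neural progenitor cell (NPC) lines with 1 array each, NS21 (grown from ES cell line 21, strain label 129/Ola), NS195R (from ES line 195R, 129/Sv) and NSEB5-2C (from ES line EB5, 129/Ola). The comparison RNA, called Mixture, was 1 array of a pool from Swiss Webster mice, holding equal masses from day 11 embryo, liver, lung, heart, kidney, spleen and thymus, and the submitters asked which transcription factors stand at least 1.5-fold above it in NPC lines. The pool's list names no brain, but Mixture was not free of neural markers. In it 6 of 7 neural progenitor and 6 of 6 neuron markers were well above background. A ratio to Mixture is thus not a ratio to RNA without neural transcripts. Each line is 1 culture line, and since no NPC line shares the strain of Mixture, cell type and strain cannot be told apart.

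Nestin and vimentin co-assemble into the intermediate filaments of dividing neural precursors, and both are also made outside the nervous system, vimentin very widely in mesenchyme, vessels and blood. Prominin-1 (the CD133 antigen) sits on membrane protrusions, the tetraspanin CD9 organises membrane proteins, and the fucosyltransferase of Fut4 makes the Lewis X sugar (SSEA-1 or CD15), and all of these surface features have been used to sort neural stem cells. Musashi proteins bind mRNA and hold back the translation of targets such as Numb, and Nr2e1 (Tlx) is a repressor that maintains neural stem cells of the forebrain.

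The arrays were checked against their labels. Markers of the pooled tissues (Alb, Nppa, Myh6, Umod, Scgb1a1 and Sftpc) were well above background for 0 of 6 in NS21, 2 of 6 in NS195R and 0 of 6 in NSEB5-2C, against 6 of 6 in Mixture, although 1 label of Mixture names an NPC line given Dox. Of 7 further neural progenitor markers, Sox2, Pax6 and Fabp7 among them, 3 were well above background in NS21, 7 in NS195R, 5 in NSEB5-2C, against 6 in Mixture. Sox2, a defining factor of neural progenitors, was not well above background in NS21. Signals are given as normalised log2 values, where 0 is the 75th percentile of the array, and probes not well above background by the scanner software have only an upper bound. Across genes well above background on all 4 arrays the NPC lines had a median log2 ratio to Mixture of 0.71, so values relative to that shift are given too. In bulk RNA, fewer cells of a type and less RNA per cell cannot be told apart.

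Nes and Vim were the pair of markers that stood at least 1.5-fold above Mixture in each of the 3 lines, Prom1 was high in NS21, Fut4 in NSEB5-2C, Nr2e1 was measurable only in NS195R, and Msi1 differed little between arrays. None of the 8 genes passed limma for the NPC lines against Mixture (adjusted p under 0.05), where 0.948% of 19822 tested genes were called higher and 8.91% lower. Vim alone was higher at an unadjusted p under 0.05, where 15.6% of all genes were higher, and 0 of the 8 lower, where 15.4% were. All 8 genes entered the fit, 6 of them well above background on all 4 arrays. At least 1.5-fold above Mixture in every line were 2 of the 8, Nes and Vim, near the 26.4% of all tested genes. At least 1.5-fold below it in every line were 0, beside 21.8% of all tested genes. The 1.5-fold cut, 0.58 in log2, lies below the median shift of 0.71. With every probe fitted, 0 of 15 tested member probes passed, beside 0.943% of all probes called higher and 7.88% lower. The median log2 ratio of the 8 was 0.62, beside 0.44 over all tested genes, and was -0.09 relative to the shift of genes measured on all arrays.

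**Figure D1:**
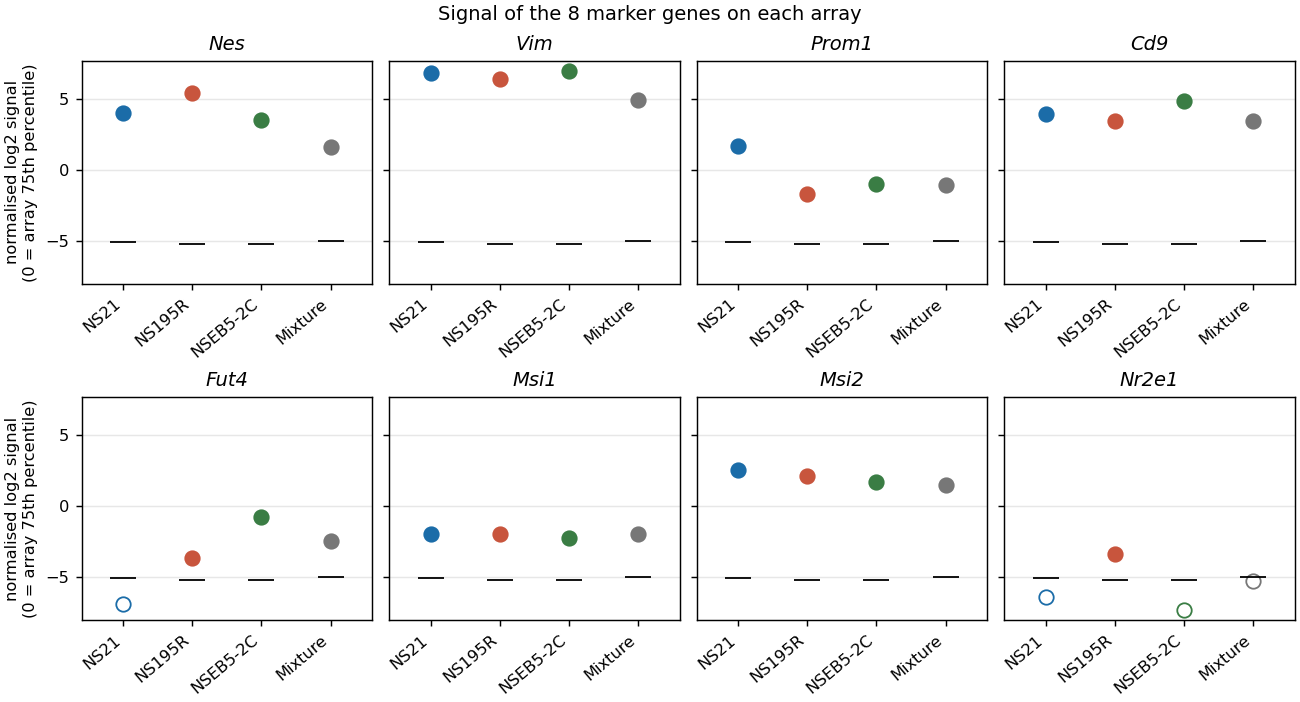
Normalised log2 signal (vertical axis, 0 = 75th percentile of the array) of the brightest probe of each gene on the 3 NPC arrays and the Mixture array; filled points were well above background, open points were not, and black dashes mark the lowest signal well above background on each array. Nes and Vim lie above Mixture in 3 of 3 lines, Prom1 stands out in NS21 at 1.74, and Nr2e1 is filled in NS195R only.

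Among the filament genes, Nes had a normalised log2 signal of 4.02 in NS21, 5.44 in NS195R, 3.53 in NSEB5-2C, against 1.66 in Mixture. Every line lay above Mixture and NS195R was the highest. This was 5.12-fold, 13.7-fold and 3.64-fold over Mixture in that order of lines, with a mean log2 ratio of 2.67 (SE 0.95), or 1.96 relative to the shift of all genes. Limma did not call it (adjusted p = 0.177), with 3 of 3 lines higher. The 10 copies of the Nes probe spanned 3.95 to 4.09 in NS21, 5.38 to 5.49 in NS195R and 3.44 to 3.61 in NSEB5-2C, against 1.54 to 1.75 in Mixture, so no array overlapped another and the SD of copies (0.0385 to 0.0688) was far below the SD between lines, which was 1.0 around a mean of 4.33 (n = 3). Nes in NS195R was 2.69-fold above NS21 and 3.78-fold above NSEB5-2C. Among the lines, summed markers of other neural cells were also highest in NS195R. For 6 oligodendrocyte lineage markers the summed linear level was 75.7 there (5 of 6 well above background), 2.04 in NS21 and 1.38 in NSEB5-2C (2 of 6 each), against 4.90 in Mixture (5 of 6). Of these 6, Mbp ran the other way, at 0.88 in NS21 and 0.36 in NSEB5-2C but not well above background in NS195R, against 1.46 in Mixture. For 5 astrocyte markers the sum was 22.6 in NS195R (4 of 5), 0.884 in NS21 and 1.02 in NSEB5-2C (2 of 5 each), against 23.4 in Mixture (4 of 5), with the astrocyte filament gene Gfap not well above background on any array. The largest astrocyte marker signal in NS195R was S100b (4.13). For 6 neuron markers the sum was 9.97 for NS195R, with NS21 at 2.72, NSEB5-2C at 0.87 and Mixture at 2.87. Of the lines, NS195R had the highest Map2, Rbfox3, Dcx and Syp. Tubb3, however, was lowest there (-2.03), with NSEB5-2C at -0.81 and NS21 at 1.16. Snap25 was also lower there (-4.64) than its NS21 signal of -3.4. The part of these markers in the Nes difference was not tested.

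Vim, the other filament gene above Mixture in every line, varied less between lines than Nes. Its signal was 6.89 in NS21, 6.44 in NS195R, 6.99 in NSEB5-2C, against 4.96 in Mixture. The lines lay within 0.55 of each other and 3 of 3 were above Mixture, by 3.80-fold, 2.78-fold and 4.07-fold. The mean log2 ratio was 1.81 (SE 0.43, limma adjusted p = 0.103), or 1.10 relative to the shift, and NPC lines averaged 6.77 ± 0.29 (SD, n = 3). With normexp background correction Vim passed limma (log2 ratio 1.79, adjusted p = 0.0432), where 974 of 19823 tested genes were called higher. With the mean of both its probes the log2 ratio was 1.02. The other Vim probe, designed on a RIKEN cDNA of embryonic testis, was well above background on 0 of 4 arrays. Mesenchyme markers, which Vim accompanies in many tissues, went the other way: their summed level was 14.7 in NS21 (5 of 5 well above background), 42.6 in NS195R (5 of 5) but 51 in NSEB5-2C (4 of 5), against 262 in Mixture (5 of 5). Of 4 endothelial markers 0, 1 and 0 were well above background in the lines, against 4 in Mixture. The part of these cells in the Vim ratio was not tested.

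RefSeq's windows from 250 bases before to 50 bases after the transcription start (GRCm38.p6) are shown for these 2 filament genes, with motifs in capitals. Both genes were at least 1.5-fold above Mixture in every line, but Nes was highest in NS195R, where Vim was lowest among the lines. The motifs searched on both strands were the TATA box (TATAAA, in 13.6% of the 32851 windows of that length), the CCAAT box (CCAAT, 37.4%), the GC box (GGGCGG, 35.7%), the CRE (TGACGTCA, 1.79%) and the E box (CACGTG, 7.15%). The Nes window lies at chr3:87970843-87971142 on the + strand and the Vim window at chr2:13574061-13574360 on the + strand.
Nes: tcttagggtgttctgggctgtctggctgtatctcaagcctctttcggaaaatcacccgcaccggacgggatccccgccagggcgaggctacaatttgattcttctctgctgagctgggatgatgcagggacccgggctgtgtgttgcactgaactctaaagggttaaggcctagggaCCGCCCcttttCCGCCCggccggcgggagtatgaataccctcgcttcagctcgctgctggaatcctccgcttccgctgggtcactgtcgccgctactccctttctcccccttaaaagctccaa
Vim: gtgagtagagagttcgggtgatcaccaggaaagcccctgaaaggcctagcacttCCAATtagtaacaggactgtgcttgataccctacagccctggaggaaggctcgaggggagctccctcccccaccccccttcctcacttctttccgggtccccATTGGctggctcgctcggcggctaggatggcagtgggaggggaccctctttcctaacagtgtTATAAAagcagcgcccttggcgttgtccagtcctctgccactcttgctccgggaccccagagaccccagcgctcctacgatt
The Nes window held the GC box at 2 places and no other searched motif, and the Vim window held 1 TATA box and 2 CCAAT boxes, so the windows shared none of the 5 motifs. Their GC contents were 58.7% and 59.3%, beside a median of 52.7% over all windows. The neural enhancer of Nes lies in an intron, outside this window.

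Of the surface markers, Prom1 split the lines most clearly among those measured on all arrays. Its brighter probe gave 1.74 in NS21, -1.66 in NS195R, -0.98 in NSEB5-2C, against -1.07 in Mixture. NS21 alone was high, and NSEB5-2C differed from Mixture by less than 2 SD of copies of a spot. NS21 was 7.01-fold above Mixture, 6.60-fold above NSEB5-2C and 10.5-fold above NS195R, while NS195R lay 1.50-fold below Mixture. The other Prom1 probe ordered the arrays the same way, with 7.54-fold over Mixture in NS21, 0.792-fold in NS195R, 1.29-fold in NSEB5-2C. The mean log2 ratio of the lines was 0.77 (SE 1.64, limma adjusted p = 0.776) and turned to -0.25 without NS21. The summed level of pluripotent cell markers was also highest in NS21, at 2.85 (3 of 6 well above background), against 0.700 in NS195R (1 of 6), 0.343 in NSEB5-2C (2 of 6) and 0.816 in Mixture (2 of 6), with Nanog and Tdgf1 not well above background on any array. Most of the NS21 sum was Esrrb (log2 signal 0.98), and Pou5f1 was well above background only in NS21 (-1.46). Dppa5a, however, was higher in NS195R (-0.72) than in NS21 (-1.12), and Zfp42 was well above background only in NSEB5-2C (-3.82). Their part in the Prom1 signal was not tested. The more upstream of the 2 RefSeq start windows of Prom1, at chr5:44101687-44101986 on the - strand (GRCm38.p6), is shown as that of the marker high in NS21; it held 1 GC box and 1 CCAAT box, and the other window held none of the motifs.
Prom1: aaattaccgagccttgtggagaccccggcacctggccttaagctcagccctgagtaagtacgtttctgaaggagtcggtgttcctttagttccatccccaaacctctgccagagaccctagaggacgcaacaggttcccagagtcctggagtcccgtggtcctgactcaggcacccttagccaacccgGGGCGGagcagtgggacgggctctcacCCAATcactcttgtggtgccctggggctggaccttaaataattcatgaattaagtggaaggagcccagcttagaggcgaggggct

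Cd9 was well above background on every array and highest in NSEB5-2C. The probe of its RefSeq transcript gave 4.0 in NS21, 3.49 in NS195R, 4.92 in NSEB5-2C, against 3.50 in Mixture. NS195R and Mixture were level within spot error, and NSEB5-2C was 2.67-fold above Mixture, 1.89-fold above NS21 and 2.69-fold above NS195R. The mean log2 ratio was 0.63 (SE 0.73, limma adjusted p = 0.609), or -0.08 relative to the shift. A dimmer Cd9 probe, designed on a RIKEN cDNA of neonate thymus, gave larger ratios of 5.13-fold in NS21, 2.52-fold in NS195R, 7.03-fold in NSEB5-2C (limma over every probe, log2 ratio 2.17, SE 0.75, adjusted p = 0.170), with the lines in the same order. The remaining Cd9 probe, on the opposite strand by the design's positions, was well above background on 0 of 4 arrays.

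Fut4 had lines on both sides of Mixture. Its signal was -0.73 for NSEB5-2C and -3.64 for NS195R but not well above background for NS21, against -2.46 in Mixture. NSEB5-2C lay above Mixture, by 3.31-fold, and the other lines below it, NS195R by 2.27-fold and NS21 by at least 6.03-fold. NSEB5-2C was 7.52-fold above NS195R and at least 19.9-fold above NS21. The fitted mean log2 ratio of -1.31 (SE 2.79, limma adjusted p = 0.777) took NS21 at its measured signal of -6.92, was 0.27 without NS21 and 0.08 with normexp. The log2 range between lines was at least 4.32, since NS21 has only a bound, beside a median range of 0.85 over all tested genes.

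Of the Musashi genes, Msi1 had nearly the same signal on all arrays. Its brighter probe gave -1.97 in NS21, -1.97 in NS195R, -2.26 in NSEB5-2C, against -1.97 in Mixture. Both NS21 and NS195R were within spot error of Mixture and NSEB5-2C was 0.29 lower, so that the mean log2 ratio was -0.10 (SE 0.37, limma adjusted p = 0.872; 0 of 3 lines were higher) and the SD between lines was 0.17, beside a median of 0.56 over all tested genes. Relative to the shift of all genes the ratio was -0.81; quantile normalization gave 0.39, median scaling 0.65 and the mean of probes 0.79. A further Msi1 probe, designed on a RIKEN cDNA of embryonic spinal ganglion, was well above background in NS195R only, at -3.63, at least 2.58-fold above Mixture.

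For Msi2 the ratio depended on the probe. At the brightest probe the signal was 2.57 in NS21, 2.11 in NS195R, 1.72 in NSEB5-2C, against 1.52 in Mixture. All lines lay above Mixture, by 2.07-fold, 1.50-fold and 1.15-fold (mean log2 ratio 0.61, SE 0.51, limma adjusted p = 0.480), which is -0.10 relative to the shift. Of the 5 Msi2 probes, 4 belong to 1 RefSeq transcript on chromosome 11 and lie within 4587 bases of each other by the design's positions. Taken 5′ to 3′ along that transcript, the log2 ratio to Mixture was -0.06, 0.18, 1.05 and 1.26 in NS21 and -0.83, -0.16, 0.59 and 1.25 in NS195R. In NSEB5-2C it was 0.15, -0.49, 0.20 and 0.62. The probe nearest the 3′ end thus exceeded the most 5′ probe by 1.33 in NS21, 2.08 in NS195R, 0.47 in NSEB5-2C, in 3 of 3 lines, and these differences share the Mixture array. The differences between probes were not tested. The remaining probe, on a RIKEN cDNA of embryonic testis, lies 138397 bases upstream of the most 3′ probe and gave 3.76-fold in NS21, 3.47-fold in NS195R, 1.37-fold in NSEB5-2C. The mean ratio differed by 1.64 between the Msi2 probes, at percentile 81.9 of 285 genes with at least 4 probes measured on all arrays (median 0.94).

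**Figure D2:**
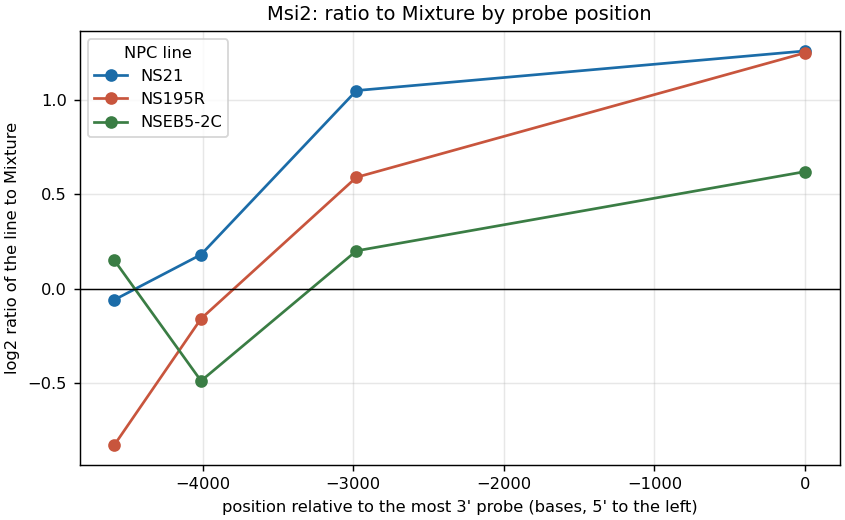
Log2 ratio of each NPC line to Mixture (vertical axis) for the 4 probes of the Msi2 RefSeq transcript, by distance in bases from the most 3′ probe (horizontal axis). The ratio at the most 3′ probe is above that at the most 5′ probe in 3 of 3 lines, most in NS195R, with 1.25 at the right and -0.83 at the left.

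Nr2e1 was well above background in 1 of the 4 arrays, NS195R, at -3.39. It was not well above background in NS21, NSEB5-2C or Mixture. NS195R was at least 3.04-fold above Mixture, at least 3.16-fold above NS21 and at least 3.48-fold above NSEB5-2C. The NPC mean gave no fold over Mixture, since it lay below the Mixture bound, and limma did not call the gene (log2 ratio -0.43, SE 1.85, adjusted p = 0.893; 0.37 without NSEB5-2C and 0.16 with normexp). The 7 progenitor markers had a summed level of 177 in NS195R, against 0.716 in NS21 and 3.17 in NSEB5-2C, with 5.86 in Mixture. Most of the NS195R sum was Fabp7 (log2 signal 7.19 in NS195R, not well above background in NS21 or NSEB5-2C, against 2.19 in Mixture), and the part of these markers in the Nr2e1 signal was not tested. The RefSeq window of Nr2e1, at chr10:42583541-42583840 on the - strand (GRCm38.p6), is shown as that of the marker seen in 1 line; it held the CRE once and no other searched motif, and the CRE stood also in the Msi2 windows.
Nr2e1: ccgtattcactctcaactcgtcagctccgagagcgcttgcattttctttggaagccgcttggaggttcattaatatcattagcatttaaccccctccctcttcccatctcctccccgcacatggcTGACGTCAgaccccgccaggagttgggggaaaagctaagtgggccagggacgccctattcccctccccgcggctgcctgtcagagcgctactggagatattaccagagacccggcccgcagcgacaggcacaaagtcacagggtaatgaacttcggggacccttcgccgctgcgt

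**Figure D3:**
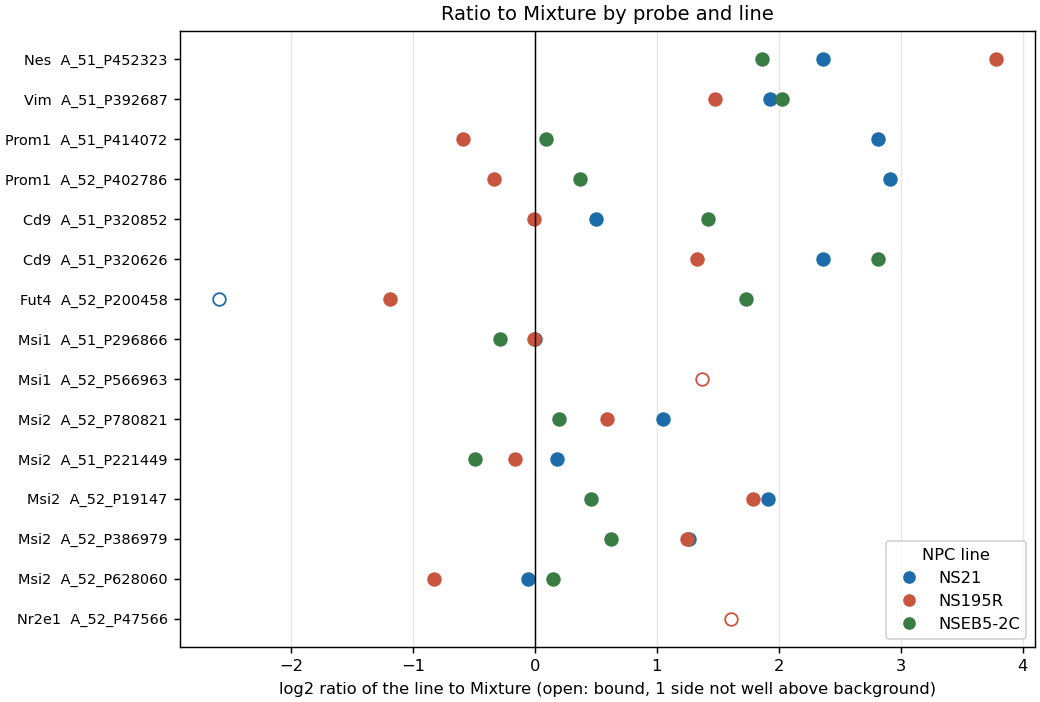
Log2 ratio to Mixture (horizontal axis) of each NPC line, for the 15 member probes well above background on at least 1 array, brightest probe of each gene first; open points are bounds because line or Mixture was not well above background, and pairs with neither measured are left out. Both Prom1 probes place NS21 far right, at 2.81 and 2.91, and the NS21 point of the brighter Msi1 probe lies under that of NS195R.

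The lines differed by more than the error of a spot for most of these genes, and each line has 1 array, so the differences between lines have no replicate check. Probes printed 10 times had a median SD between copies of 0.0401 to 0.149 at the levels of measured members. Ordered by level, 15 of 20 neighbouring arrays measured on both sides differed by more than 2 SD of such copies. These pairs include Mixture as well as the lines. The SD of copies is within an array and leaves out error between arrays, such as that of scaling. The 5 that did not were NSEB5-2C and NS21 for Vim, NSEB5-2C and Mixture for Prom1, Mixture and NS195R for Cd9, and NS21, NS195R and Mixture for Msi1. At least 2-fold from both other lines in some line were 4 of the 8 genes, against 33% of all tested genes. They were Prom1 above in NS21 (7.3% of all genes), Nes and Nr2e1 above in NS195R (10.3%), Fut4 above in NSEB5-2C (5.6%), and Fut4 below in NS21 (at least 2.65-fold, 4.06%). Below both others in NS195R (5.89%) or NSEB5-2C (6.3%) were 0. Prom1 and Fut4 were at least 1.5-fold above Mixture in 1 line and below it by as much in another, as were 8.26% of all tested genes. With normexp the 2-fold difference of Nr2e1 and the low Fut4 in NS21 were no longer counted.

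Genes related to the 8 markers were set beside them from 6 lists, whose members were chosen with earlier results of these data known. Of 18 tested intermediate filament genes 0 passed limma. Unadjusted p-values under 0.05 were met by Vim (higher) and by the neurofilament gene Nefh (at least 3.46-fold lower). That is 1 of 18 each way, beside 15.6% and 15.4% of all tested genes. The median log2 ratio was -1.12, or -1.95 without Nes and Vim, beside 0.44 over all tested genes. The lamin gene Lmnb1, of the nuclear lamina, had 1.51 as its log2 ratio (SE 0.66), Lmnb2 1.09 (SE 0.40) and Lmna 0.72 (SE 1.42). Des, the muscle filament gene, was well above background in 1 of 3 lines (NS21, -0.35, against 3.45 in Mixture). Synm, whose product joins nestin and vimentin filaments, stood at -2.46 for NS21 and -2.87 for NS195R but not well above background for NSEB5-2C, against -0.75 in Mixture. The neurofilament genes Nefl (0.75, SE 0.71) and Nefm (-0.84, SE 0.93) did not pass.

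Tetraspanins and their partners had 3 of 27 lower and 0 higher by limma, near the 8.91% and 0.948% of all tested genes. Unadjusted p-values under 0.05 were met by 7 lower and 0 higher, beside 15.4% and 15.6% of all tested genes. Their median log2 ratio was -0.05, beside 0.44 over all tested genes. The leukocyte tetraspanin genes Cd37 (at least 7.75-fold lower, limma adjusted p = 0.0123) and Cd53 (at least 25.7-fold, adjusted p = 0.00864) and the epithelial Tspan1 (at least 95-fold, adjusted p = 0.00859) were each lower in 3 of 3 lines. None of these 3 was well above background in any line. Their p-values thus rest on the spread of background-level signals (SD between lines 0.06, 0.07 and 0.16). These 3 were named after their values were seen. Blood markers had a summed level of 0.132 in NS21, 0.121 in NS195R, 0.0738 in NSEB5-2C (2, 2 and 1 of 5 well above background), against 535 in Mixture (5 of 5), with the leukocyte genes Ptprc and Cd3d not well above background in any line, and their part in these calls was not tested. Without any 1 of the lines limma called 0 of the 27, and 0 of all genes. The tetraspanin genes nearest to Cd9 in use, Cd81 (log2 ratio 0.47, SE 0.97), Cd63 (1.11, SE 0.49) and Cd151 (0.23, SE 0.82), did not pass limma, nor did the partner gene Ptgfrn (0.83, SE 0.38). Among list genes measured on all 4 arrays, Tspan33 (-4.18, SE 0.97), Cd82 (-3.65, SE 0.62) and Tspan13 (-2.34, SE 0.85) had the largest absolute log2 ratios and did not pass limma.

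Among 14 prominins and surface proteins used for sorting, limma called Prom2, the epithelial relative of Prom1, lower in 3 of 3 lines (at least 14.3-fold, adjusted p = 0.00956) and no gene higher, beside 8.91% and 0.948% of all tested genes. Prom2 was not well above background in any line, so its p-value rests on background-level signals (SD between lines 0.03). Unadjusted p-values under 0.05 were met by Itgb1 and Ncam1 (higher) and Prom2 and Cd24a (lower), 2 of 14 each way, near the 15.6% and 15.4% of all tested genes. Without any 1 of the lines, where limma called 0 of all genes, and with the mean of probes the count was 0. The integrin subunit gene Itgb1 had 1.86 as its log2 ratio (SE 0.39, limma adjusted p = 0.0879) and Itga6 had 2.01 (SE 1.04, limma adjusted p = 0.293). Each was above Mixture in 3 of 3 lines, Itgb1 by 1.15 and Itga6 by 1.29 relative to the shift in the mean. Ncam1, a neural adhesion molecule, had 2.17 (SE 0.71), and Cd24a, which marks neuroblasts and is used to exclude them, had -1.36 (SE 0.38). Slc1a3, the glial glutamate transporter, was at 4.36 in NS195R but at -1.0 in NS21 and -0.17 in NSEB5-2C, against -1.14 in Mixture. Egfr was at 1.51 in NS21, 3.70 in NS195R, -0.17 in NSEB5-2C, against 1.67 in Mixture. NS195R was the highest line for Slc1a3 and Egfr, as for Nes, but the lowest for Itgb1 (2.9), Itga6 (2.83) and Prom1 (-1.66). In NS195R, 2 of these 14 genes exceeded NS21 and NSEB5-2C by 2-fold or more, beside 10.3% of all tested genes. Vcam1 was below Mixture in 3 of 3 lines (-3.09, SE 2.16).

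For the fucosyltransferases 0 of 8 tested genes passed limma. Fut7, 1 of the 8, was lower at an unadjusted p under 0.05, beside 15.4% of all tested genes. The median log2 ratio was 0.77, beside 0.44 over all tested genes, or 0.06 relative to the shift. Fut9, the other maker of Lewis X in neural tissue, was well above background in NS195R only among the lines, at -2.98, against -1.86 in Mixture. Neither Fut4 nor Fut9 was well above background in NS21, both were in NS195R, and Fut4 alone was in NSEB5-2C. Fut7 was well above background in 1 of 3 lines, and Fut8, which adds core fucose, had a log2 ratio of 1.71 (SE 0.91), Fut10 1.75 (SE 0.90), Fut11 0.80 (SE 0.64), Pofut1 0.73 (SE 0.39) and Pofut2 1.06 (SE 0.37), all above Mixture in 3 of 3 lines, though none passed limma.

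Of 21 tested Musashi and other neural RNA-binding genes 0 passed limma. Ptbp2 and Celf1, 2 of the 21, were higher at an unadjusted p under 0.05, beside 15.6% of all tested genes. The median log2 ratio was 0.85, beside 0.44 over all tested genes, or 0.14 relative to the shift. Igf2bp1, an oncofetal RNA-binding gene, stood at 4.15 in NS21, -0.75 in NS195R, 3.64 in NSEB5-2C, against -2.30 in Mixture (log2 ratio 4.65, SE 2.43, limma adjusted p = 0.295). Igf2bp2 had 2.89 (SE 1.31), Igf2bp3 1.99 (SE 2.05), the splicing regulator Ptbp2 2.22 (SE 0.34, limma adjusted p = 0.0509), Ptbp1 0.89 (SE 0.45) and Elavl1 0.85 (SE 0.39). The Musashi target Numb had 0.23 (SE 0.60).

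The NR2 receptors with cofactors and targets of Nr2e1 had 0 of 17 past limma. Kdm1a, Hdac3 and Atn1, 3 of the 17, were higher at an unadjusted p under 0.05, beside 15.6% of all tested genes. The median log2 ratio was 0.54, beside 0.44 over all tested genes, or -0.17 relative to the shift. The corepressor genes Kdm1a (log2 ratio 2.17, SE 0.53), Hdac3 (1.29, SE 0.38) and Atn1 (1.41, SE 0.35) were above Mixture in 3 of 3 lines, with limma adjusted p of 0.109, 0.138 and 0.110, and Rere had 0.97 (SE 0.65). Relative to the shift, Kdm1a stood at 1.46, Hdac3 at 0.58, Atn1 at 0.70 and Rere at 0.26. Cdkn1a, a target that Nr2e1 represses and a cell cycle inhibitor, stood at 4.26 in NS21, 4.0 in NS195R, 0.70 in NSEB5-2C, against 0.56 in Mixture. Nr2f1 was well above background in 1 of 3 lines and not in Mixture, Nr2f2 had -1.08 (SE 1.92), Nr2c1 1.04 (SE 0.44) and Nr2c2 0.68 (SE 0.44).

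**Figure D4:**
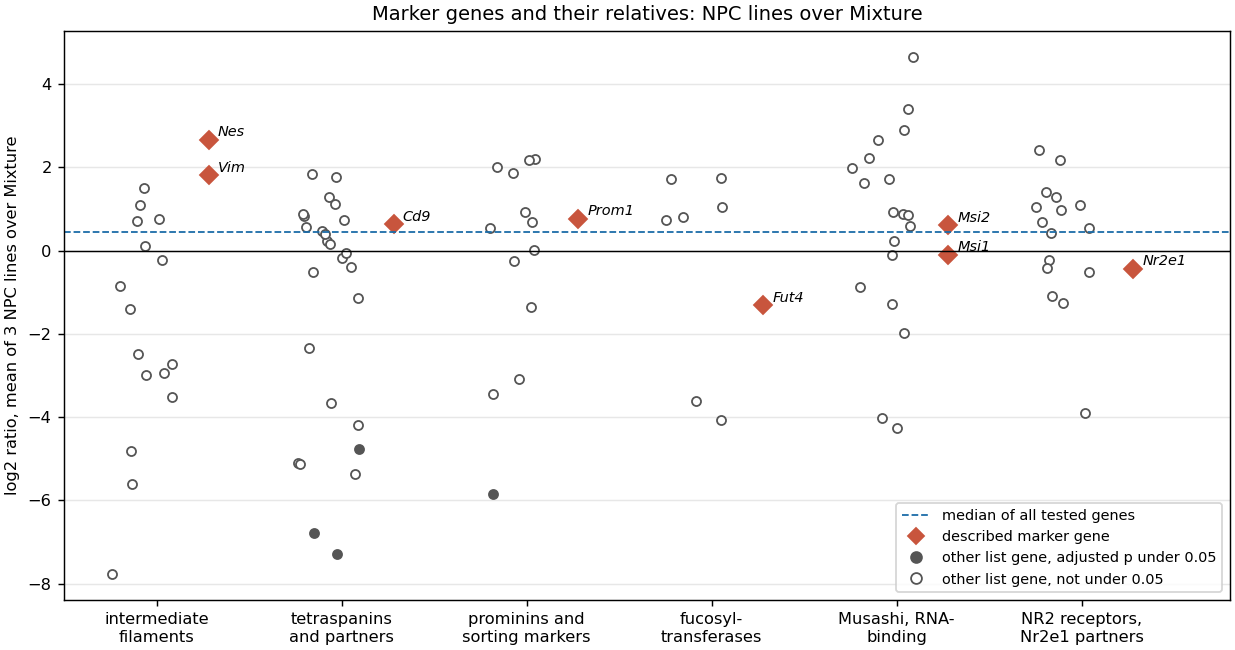
Log2 ratio of the mean of 3 NPC lines to Mixture (vertical axis) for the tested genes of 6 lists of relatives; diamonds are the 8 markers, filled circles are genes with a limma adjusted p under 0.05, and the dashed line is the median of all tested genes, 0.44. Values of genes not well above background on a side are drawn as fitted. In this mean over the lines, Nes (2.67) and Vim (1.81) are the highest of the filament list, and the 4 filled circles all lie below 0.

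Genes whose pattern over the 4 arrays was most like that of a marker were looked up among 11041 named genes measured on all arrays, by the root mean square difference of log2 values centred on each gene's mean. Nearest to Nes were Srgap2 (0.132), Golm1 (0.159) and the glial factor gene Sox9 (0.192), and nearest to Prom1 were Dennd2c (0.151), Tanc2 (0.196) and the growth factor gene Mdk (0.219). Vim had closer neighbours in Crk (0.0182), Pias2 (0.0232) and Taf15 (0.0337), Cd9 in Smyd3 (0.0582), Arf6 (0.0587) and the NF-kB subunit gene Rela (0.0618), Msi1 in Ipmk (0.0234), Cox7c (0.0362) and Olfr279 (0.0382), and Msi2 in Kctd20 (0.0241), Eif4ebp2 (0.0377) and Pan3 (0.0490). Among the 6 markers measured on all 4 arrays, so without Fut4 and Nr2e1, the most alike were Msi1 and Msi2 (0.375) and Vim and Cd9 (0.615). The least alike of these 6 were Nes and Prom1 (1.89). With 4 arrays many genes share any given pattern, so the distances describe these arrays only.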

How the data were processed

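Total RNA of 3 NPC lines and of Mixture was hybridised to 1 array each. The spot intensities were made by the authors by Agilent Feature Extraction, whose version per the file headers was 9.5.3.1, with background subtraction and quality marks on spots. The deposited value table held the same intensity at all 45018 features. The deposited signals were then converted to log2, less the percentile 75 of non-control spots on that array. Outlier spots were dropped, copies averaged, and symbols updated through RefSeq's table for GRCm38.p6. For probe positions, the build is not given in the sources.

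For each gene the probe with the highest mean was kept, and 19822 genes with at least 1 array well above background entered the fit by lmFit and eBayes of limma 3.58.1 (R 4.3.3), with two-sided p-values adjusted by Benjamini-Hochberg over them, the single Mixture array being assumed to vary like the lines. P-values measure the spread between lines, and the number of arrays limits precision. For a gene not well above background in any line, that spread is of background-level signals. For folds written as at least N-fold, dim values stood at the array's lowest signal that passed the background test. All arrays came from 1 slide and scan, so no batch was tested. Alternatives were normexp, quantile and median scaling, other filters, the mean of probes, an intensity trend and leaving out each line. The code was tested on simulated data. The rule for named genes took all 8 markers, a fixed set of relatives, up to 3 further genes per list with the largest absolute ratio among those well above background on all 4 arrays, and the 3 nearest patterns per marker. Some list members are not reported here by name. Members and lists were chosen with earlier results of these data known. Columns of other samples numbered 0.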

Additional observations from a re-analysis of the deposited data

Results flagged for a closer look

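Prom1 and Fut4 had NPC lines on both sides of Mixture, 1 line exceeding it and another falling short by 1.5-fold or more, as had 8.26% of all tested genes. Between the extreme lines the log2 signal differed by 3.40 for Prom1 (NS21 over NS195R) and by at least 4.32 for Fut4 (NSEB5-2C over NS21, where Fut4 was not well above background). For Prom1 the lower side was 1.50-fold in NS195R at 1 probe and 0.792-fold of Mixture at the other. Neither difference was tested, since each line has 1 array.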

How the results depend on the processing

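No paired analysis was possible because the labels give no replicate numbers that Mixture and the NPC lines share. Over 12 settings the log2 ratio of Nes stayed between 2.11 and 3.42 and that of Vim between 1.02 and 2.56, and relative to the shift of all genes between 1.37 and 2.34 and between 0.35 and 1.26. The shift itself was 0.53 with normexp, 0.74 with quantile normalization and 1.46 with median scaling. Cd9 and Msi2 were above 0 in 12 of 12 settings, but relative to the shift in 4 and 2 of them. Normexp turned Fut4 to 0.08 and Nr2e1 to 0.16, made 1 member pass (Vim, 1.79), and left 0 members at least 2-fold below both lines in NS21 and 1 above in NS195R. Its calls were 1 higher and 1 lower filament gene, 7 lower tetraspanins, 1 higher and 2 lower sorting markers, 1 lower fucosyltransferase, 2 higher RNA-binding genes and 1 higher NR2 list gene. Over all 19823 genes tested with normexp, limma called 974 higher and 1988 lower, beside 188 and 1767 of 19822 in the main setting. Quantile normalization turned Msi1 to 0.39 and Nr2e1 to 0.33, and called 1 RNA-binding gene higher, beside 587 of all 19815 tested genes. Median scaling turned Msi1 to 0.65 and Nr2e1 to 0.32, and put 4 members at least 1.5-fold above Mixture in every line, 1 at least 2-fold below both lines in NS195R and 2 above in NSEB5-2C. The share of all tested genes past these folds with median scaling is not given here. Relative to the shift of 1.46 in that setting, Cd9 (-0.08) and Msi2 (-0.10) stood as in the main setting. With the fit limited to genes measured on all 4 arrays, where Fut4, Nr2e1, Cd37, Cd53, Tspan1 and Prom2 drop out and limma called 0 of 12727 genes, 0 tetraspanins and 0 sorting markers could be counted as lower, and the members 2-fold apart were 0 below in NS21, 1 above in NS195R and 0 above in NSEB5-2C. Without a filter 1 RNA-binding gene was higher and 1 NR2 list gene lower, beside 525 higher and 1969 lower of all 27660 genes. The mean of probes turned Msi1 to 0.79 and left 0 sorting markers lower, beside 1820 of all 19843 tested genes. An intensity trend called 1 sorting marker and 1 RNA-binding gene higher, beside 473 of all 19822 tested genes. Leaving out each line gave -0.25 to 1.45 for Prom1, -2.82 to 0.27 for Fut4 and -1.58 to 0.37 for Nr2e1, and 0 lower tetraspanins and sorting markers each time, as limma then called 0 of 19822 genes. Apart from the fewer genes or samples of these constructions, the cause was not tested. Signal over background limits Fut4, Nr2e1 and the dim Msi1 and Cd9 probes.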
